A study of Mus musculus with 3 samples.

Results

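EBF1 chromatin immunoprecipitation and sequencing (ChIP-seq) signal was examined beside 8 genes of the Notch pathway in mouse pro-B cells: the receptor genes Notch1 and Notch3, the coactivator genes Maml1 and Maml3, the target gene Hes1, and Dtx1, Neurl1b and Neurl3, which encode RING-domain proteins. A region was taken as belonging to a gene when that gene had the nearest protein-coding gene body to the region's centre, within 100 kb. This gave 17 of 4116 regions, which merged where they overlapped into 9 of 2121 loci: 2 for Hes1 and 1 for each other gene. The genes were listed because they had a locus, so their having one is no result.

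The cells came from c-kit+ progenitors of Ebf1-/- fetal livers of C57BL/6 embryos (E16.5). All carried 2 further retroviral constructs, pMYs-rtTA-Advanced-tdTomato and pRetroX-Tight-Pur-FLAG-NICD1, so that doxycycline switched on NICD1, the intracellular domain of Notch1. EBF1 was returned by a separate retrovirus with a StrepFLAG tag and GFP, as the wild-type protein (EBF1wt) or as a protein with an amino acid substitution (EBF1E271A). The cells had been differentiated on OP9 feeder cells and received doxycycline at 1 µg/ml for 6 hours without feeders. Each of the 3 groups, EBF1wt ChIP, EBF1E271A ChIP and an input from cells with the EBF1wt construct, had 1 library. All 3 had doxycycline, so nothing here compares cells with and without NICD1. EBF1 came from a virus, not from its own gene, and no RNA was measured, so the cell type was taken from the labels.

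Notch receptors are cut after they bind a ligand on a neighbouring cell, and the freed intracellular domain enters the nucleus. There it joins the DNA-binding protein RBPJ and a Mastermind-like coactivator (MAML) and switches on targets such as Hes1. In early lymphoid progenitors Notch1 signalling directs cells to the T lineage, while EBF1 directs them to the B lineage. The design asks how the substituted EBF1 occupies the genome while NICD1 is present.

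None of the 9 loci overlapped a RefSeq promoter window (250 bases before to 50 bases after a gene's start, GRCm38.p6) of any gene in the promoter table. Of all 2121 loci, 8.49% overlapped such a window. The promoter table held 7 of the 8 genes. Its windows were searched on both strands for the EBF1 core CCCNNGGG, which reads the same on both strands, and for the RBPJ core TGGGAA. The EBF1 core was found in the windows of Notch3, Maml1 and Dtx1, 3 of 7, against 13.7% of all 32851 full windows. The RBPJ core was found in that of Maml3, 1 of 7, against 25.6%. Each window with a match held 1 match, and none of the 7 held both motifs. The matches are shown because they are the stretches of these genes for which sequence was used here; they lie outside the EBF1 loci. They are written 5′ to 3′ on the gene's strand, which is the minus strand for all 4, with the motif in capitals.
Notch3 (chr17:32166926-32166955): ctcagagccggCCCCGGGGcggggcgagcc
Maml1 (chr11:50292415-50292444): tgtcccccacgCCCTCGGGcagcgggtttc
Dtx1 (chr5:120711656-120711685): ggccgcctccaCCCGCGGGatcccagcgac
Maml3 (chr3:52105175-52105202): caggtcggggcTTCCCAgcctggggagc
The motif began 54 bases before the start of Notch3, 97 before that of Maml1, 5 before that of Dtx1 and 185 before that of Maml3. These starts are those of the promoter table. The gene bodies of Maml1, Dtx1 and Maml3 used here reach farther upstream, so these matches lie inside them, while that of Notch3 does not. A match of these letters is a description and not a binding site.

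Of the 9 loci, 4 lay inside the gene body and 5 outside it, and 54.0% of all loci lay inside a protein-coding gene body. The locus of Notch3 lay 2.74 kb into the gene, that of Dtx1 7.06 kb, that of Maml1 23.0 kb and that of Maml3 104 kb into a gene of 418 kb. Upstream of the start in the promoter table were the loci of Neurl3 (8.63 kb), Notch1 (9.66 kb) and Neurl1b (33.7 kb). The Neurl3 gene body reaches upstream of that start, and the locus lay 7.38 kb from the body. Hes1 had a locus 1.86 kb from its body and another 55.5 kb away, which were 53.6 kb apart. The distant Hes1 locus overlapped the noncoding gene 4632428C04Rik. Whether the loci inside genes lay in exons or introns was not analysed here.

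**Figure D1:**
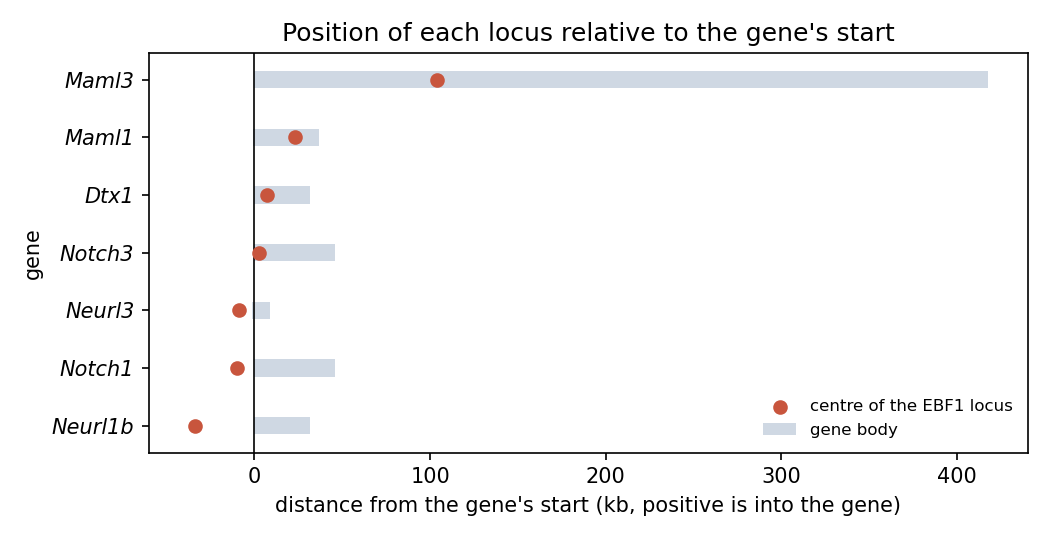
Position of the centre of the EBF1 locus (points) relative to the gene's start in the RefSeq promoter table, in kb along the gene's strand, for the 7 genes in that table, with the gene body as a bar. Loci of Notch3, Dtx1, Maml1 and Maml3 lie in the gene body, and those of Neurl3, Notch1 and Neurl1b lie 8.63, 9.66 and 33.7 kb upstream.

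The values are counts per region of 300 bp, scaled by the authors with chromatin of human BJAB cells, a B lymphoma line added at 1 cell to 10 mouse cells. Before scaling, the member loci held 64 to 249 counts in the EBF1wt library and 111 to 481 in the EBF1E271A library. Over all 4116 regions the sums were 515897 and 1105818 counts, which count a read once in each overlapping region. Intervals are 95% intervals, exact Poisson for a level and exact binomial (Clopper-Pearson) for a ratio of EBF1E271A over EBF1wt. They cover counting error only, since PCR copies are not separate molecules, and take the scale factors as free of error. With 1 library per group there was no replicate check and no test between the proteins. Input values were not used here. Where 2 regions made up a locus, the one with the higher mean is given. The pair were shifted by 2 to 80 bp, and their ratios differed by a factor of at most 1.03.

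The receptor genes had nearly equal values for both proteins on the deposited scale. At the locus 9.66 kb upstream of Notch1 (GRCm38 chromosome 2, 26513331 to 26513630), the scaled count was 123 (97.5 to 154) for EBF1wt and 122 (105 to 141) for EBF1E271A. These intervals overlapped, and the ratio was 0.990 (0.757 to 1.30). Notch1 is the receptor whose intracellular domain was expressed in these cells. At the locus inside Notch3 (chromosome 17, 32163999 to 32164298), it was 188 (156 to 225) for EBF1wt and 169 (149 to 190) for EBF1E271A. Here too the intervals overlapped, and the ratio was 0.898 (0.721 to 1.12). With both libraries set to the same sum over the regions, the ratio was 1.15 (0.883 to 1.52) at Notch1 and 1.05 (0.840 to 1.31) at Notch3. How near to equal the values are thus rests on the scale. By EBF1wt value the Notch3 locus ranked 638th and the Notch1 locus 1386th of the 2121 loci.

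The coactivator genes had different levels and, at Maml3 alone, values that differed between the proteins. Mastermind-like proteins bind the complex of the Notch intracellular domain and RBPJ and recruit histone acetyltransferases to it. Inside Maml1 (chromosome 11, 50269207 to 50269506), the scaled count was 315 (272 to 362) for EBF1wt and 304 (278 to 333) for EBF1E271A, a ratio of 0.967 (0.818 to 1.15). This was among the stronger loci in both libraries, ranked 177th by EBF1wt and 151st by EBF1E271A. Inside Maml3 (chromosome 3, 52001189 to 52001488), the scaled count was 115 (90.5 to 145) for EBF1wt and 70.2 (57.8 to 84.5) for EBF1E271A. The EBF1E271A value lay below the EBF1wt value and the intervals did not overlap. The ratio of 0.608 (0.449 to 0.829) was the lowest of the 9 loci, and 8.96% of all loci had a lower one. When the scale was instead set so that both libraries had the same sum over the regions (equal sums), the Maml3 ratio was 0.709 (0.523 to 0.967), no longer 1.5-fold lower. The locus was 1 of 2 of the 9 that exceeded a scaled count of 100 in EBF1wt alone, beside 23.1% of all loci, and such loci have a ratio below 1 by construction. The intervals of the Maml1 and Maml3 ratios overlapped only between 0.818 and 0.829.

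The Hes1 loci had equal ratios at different levels. Hes1 encodes a basic helix-loop-helix repressor and is a direct target of Notch. The nearer locus (chromosome 16, 30063344 to 30063643) had 149 (120 to 182) for EBF1wt and 135 (118 to 155) for EBF1E271A. The distant locus (chromosome 16, 30009706 to 30010005) had 101 (77.9 to 129) for EBF1wt and 91.7 (77.4 to 108) for EBF1E271A. In both libraries the nearer locus was the higher one, with intervals that did not overlap for EBF1E271A and that overlapped for EBF1wt. The ratios were 0.911 (0.711 to 1.17) and 0.906 (0.671 to 1.24). The ratio at the nearer locus was 1.00 times that at the distant one (95% Woolf interval 0.686 to 1.47), a quotient that does not depend on the scale between the libraries. The distant locus, of 1 region only, exceeded 100 in EBF1wt alone. The 7 loci other than this one and that of Maml3 exceeded 100 in both libraries, beside 68.4% of all loci.

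The 3 genes of RING-domain proteins held both the strongest EBF1wt signal and the highest ratio of the set. Dtx1 encodes Deltex 1, a ubiquitin ligase that binds the Notch intracellular domain. Inside Dtx1 (chromosome 5, 120704456 to 120704755) the scaled count was 182 (150 to 218) for EBF1wt and 167 (147 to 188) for EBF1E271A. The intervals overlapped, and the ratio of 0.918 (0.735 to 1.15) was close to those of Notch3 and Hes1.

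Neurl3 and Neurl1b are relatives of the fly gene neuralized, whose product ubiquitinates Notch ligands. Upstream of Neurl3 (chromosome 1, 36281904 to 36282203) the scaled count was 394 (346 to 446) for EBF1wt and 300 (273 to 328) for EBF1E271A. EBF1E271A was lower, and the intervals did not overlap. The ratio was 0.762 (0.652 to 0.891). With equal sums it was 0.888 (0.760 to 1.04), an interval that held 1. With the region of the highest EBF1wt value left out of the sums, the Neurl3 ratio was 0.847. Whether the interval at Neurl3 excludes 1 thus depends on the scale chosen between the libraries. The locus ranked 99th of all loci by EBF1wt and 159th by EBF1E271A. Upstream of Neurl1b (chromosome 17, 26380966 to 26381265) the order was the other way, with 101 (77.9 to 129) for EBF1wt and 174 (154 to 196) for EBF1E271A. The intervals did not overlap, and the ratio was 1.72 (1.31 to 2.29), with 1.70% of all loci higher. With equal sums the ratio was 2.00 (1.52 to 2.67). The second region of this locus had 96.4 for EBF1wt, and both regions were over 100 in EBF1E271A, the level that every deposited region exceeded in at least 1 library. A region over 100 in EBF1E271A alone, as this second one was, has a ratio above 1 by construction. The EBF1wt value of the locus was near that level, with 89.5% of all loci higher, which bears on the rank of its ratio.

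**Figure D2:**
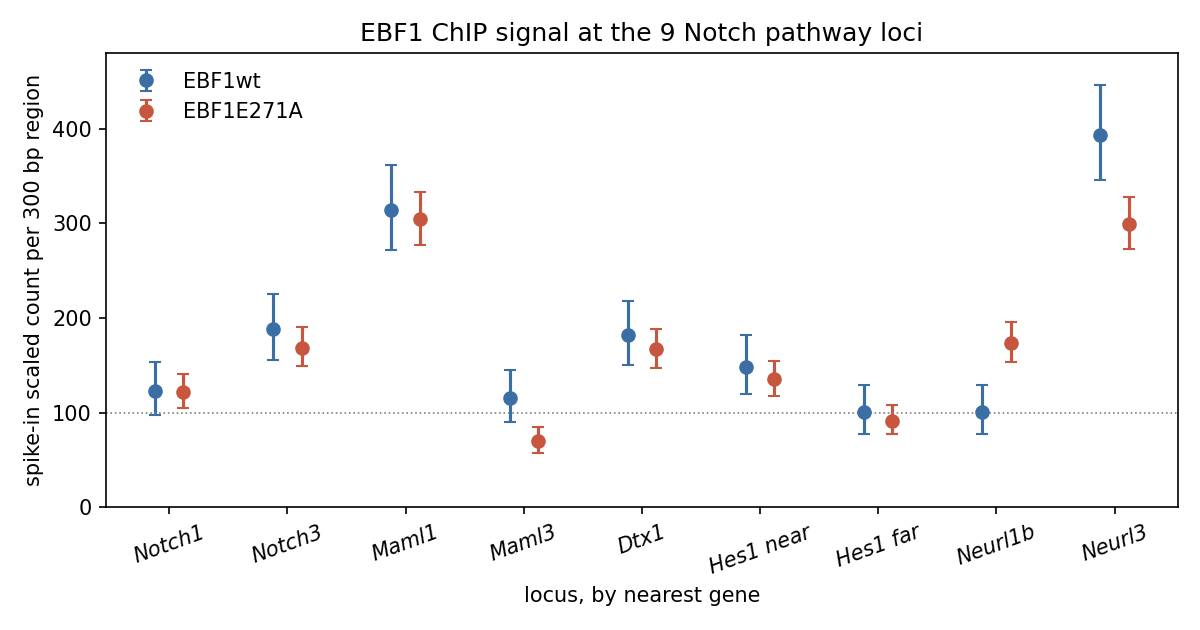
Spike-in scaled count per 300 bp region at each of the 9 loci (by nearest gene) for the EBF1wt library (blue) and the EBF1E271A library (red), 1 library each. Bars are exact Poisson 95% intervals and the dotted line marks 100. Neurl3 and Maml1 have the highest values in both libraries, and EBF1E271A is lower at Maml3 (70.2 against 115) and Neurl3 (300 against 394) and higher at Neurl1b (174 against 101).

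Ordered by EBF1wt value, the loci were Neurl3, Maml1, Notch3, Dtx1, the nearer Hes1 locus, Notch1, Maml3, and then Neurl1b and the distant Hes1 locus at the same value. Of the 8 steps in this order only that from Maml1 to Notch3 separated intervals that did not overlap. Ordered by EBF1E271A, the loci were Maml1, Neurl3, Neurl1b, Notch3, Dtx1, the nearer Hes1 locus, Notch1, the distant Hes1 locus and Maml3. Again only 1 of the 8 steps, from Neurl3 to Neurl1b, separated intervals that did not overlap. Neurl1b moved from the lowest value in the first order to the third place in the second. Over the 9 loci the median EBF1wt value was 149 and the median EBF1E271A value 167 (all loci, 144 and 131), and 6 of the 9 loci were at or above the median of all loci in mean value.

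**Figure D3:**
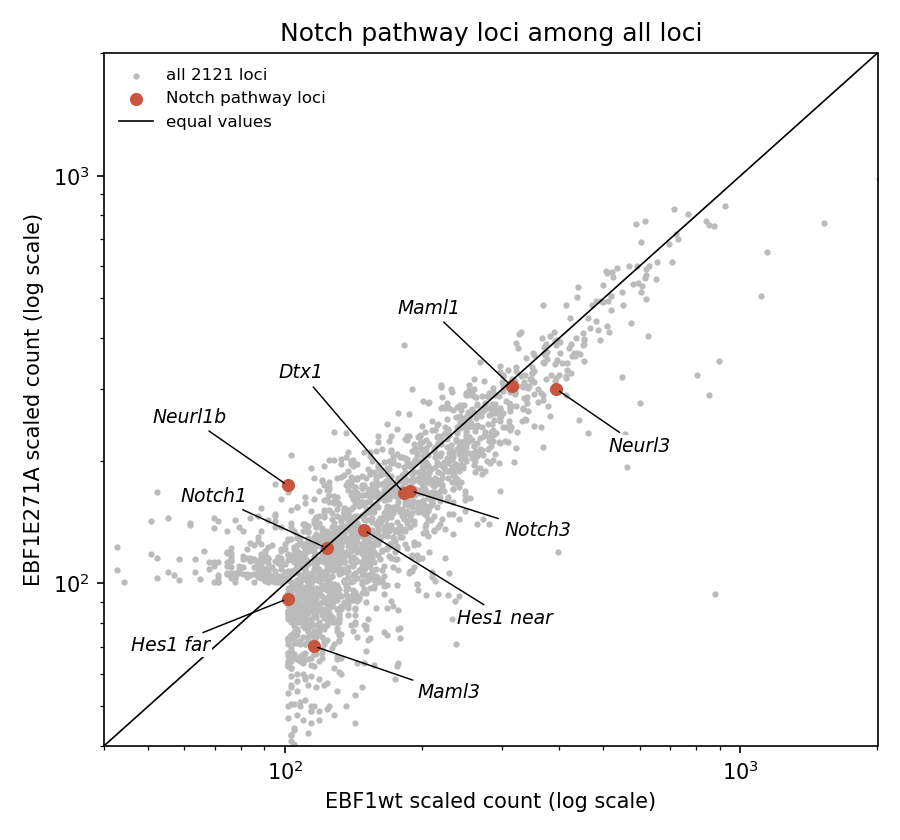
EBF1wt against EBF1E271A scaled count, both on log axes, for all loci (grey) and the 9 Notch pathway loci (red), with the line of equal values; 25 loci outside the range of 40 to 2000 are not drawn. Neurl1b lies above the line, Notch1 and Maml1 lie almost on it, and Maml3 and Neurl3 lie below it. The empty lower left corner is where both values are at or under 100.

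Most of the 9 ratios were like those of the whole table. The ratio was below 1 at 8 of 9 loci, beside 67.2% of all loci, but with equal sums in place of the spike-in scale 2 of 9 were below 1, beside 42.9% of all loci. The median ratio was 0.911 for the 9 loci and 0.896 for all, log2 ratios of -0.13 and -0.16. At least 1.5-fold lower was 1 locus, Maml3, beside 14.3% of all loci. At least 1.5-fold higher was 1 locus, Neurl1b, beside 3.25%. At 2-fold there was 0 in either direction, beside 4.53% lower and 0.943% higher. The interval excluded the median ratio of all loci at 3 of 9 loci, beside 34.0% of all loci. These were Maml3 and Neurl3 below it and Neurl1b above it, and the same 3 intervals excluded 1, beside 38.0% of all loci (29.8% below it and 8.11% above it). With equal sums 2 of the 9 intervals excluded 1, those of Maml3 and Neurl1b, beside 34.7% of all loci. The share near the background is therefore no result about the Notch genes as a group. The other 6 loci had ratios from 0.898 to 0.990.

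The spread among the loci came mainly from Neurl1b and Maml3. The SD of the log2 ratios was 0.40 over the 9 loci and 0.49 over all loci, and counting error alone gives 0.18 in either set. The highest ratio was 2.83 times the lowest, and 1.30 times without Neurl1b and Maml3. Of the 36 pairs of loci, 8 had ratio intervals that did not overlap, and all 8 were pairs of Neurl1b with another locus. The share among pairs of all loci was not computed, so the count is a description only. The Neurl1b interval began at 1.3053, barely above the end of the Notch1 interval at 1.3047. For the other regions of these 2 loci the intervals overlapped, with Neurl1b from 1.337 and Notch1 up to 1.343. These comparisons between loci do not depend on the scale between the libraries. Without a second library per protein, whether the Neurl1b difference would recur was not tested.

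**Figure D4:**
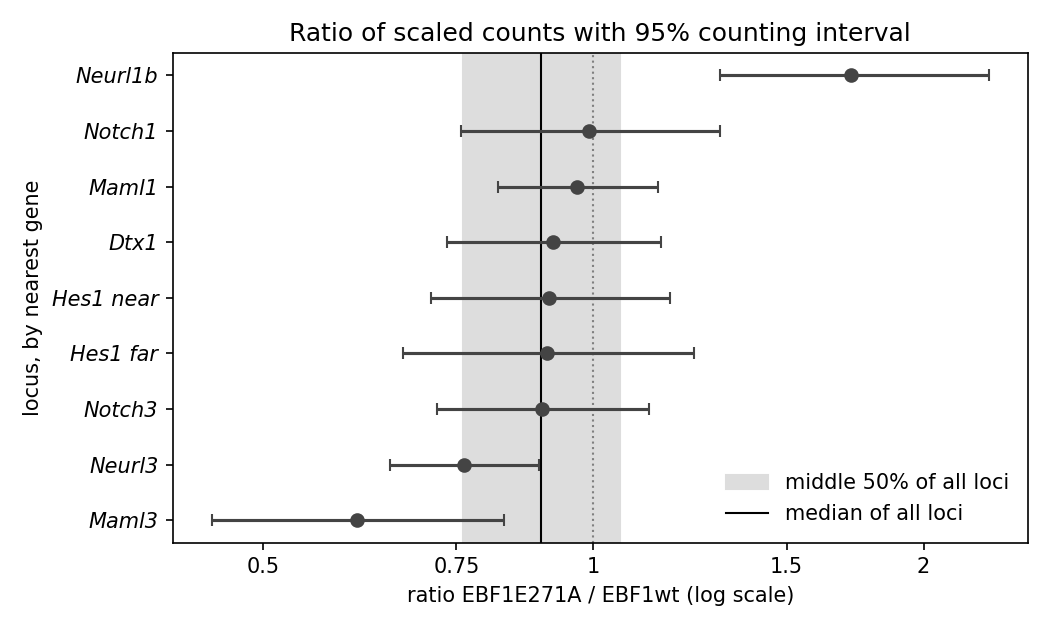
Ratio of EBF1E271A over EBF1wt (log axis) at the 9 loci with exact binomial 95% intervals. The black line is the median of all loci (0.896), the grey band their middle 50% (0.760 to 1.06) and the dotted line equal values; Neurl1b (1.72) lies above the band, Maml3 (0.608) lies below it, and Neurl3 (0.762) sits at its lower edge.

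The loci around the members gave the local range of ratios. Within 1 Mb of the Neurl1b locus there were 4 other loci, with ratios from 0.836 to 0.992, all below that of Neurl1b. The next nearest protein-coding gene to the Neurl1b locus, Luc7l, lay 95.6 kb away. Around Maml3 there were 2 other loci, at 0.805 and 0.927, both above that of Maml3, and around Neurl3 2, at 0.873 and 1.19, both above that of Neurl3. Around Notch1 there were 9, from 0.548 to 1.72, with 4 above and 5 below the Notch1 ratio. Around Notch3 there were 4, from 0.412 to 1.02, around Maml1 3, from 0.373 to 1.26, and around Dtx1 2, at 0.844 and 1.48. In each of these 3 places the member's ratio lay inside the local range. The Hes1 loci had 6 each, the other Hes1 locus included, from 0.737 to 1.16.

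The rule's limit of 100 kb cut off no locus, since 0 loci had a member as nearest gene beyond it and the farthest member locus was 55.5 kb away. A further 3 loci lay within 100 kb of a member but nearer to another gene. One was 25.1 kb from Neurl3 and nearer to Arid5a, with 122 for EBF1wt and 145 for EBF1E271A (ratio 1.19, 0.919 to 1.57). The others were 33.7 kb from Maml1, nearer to Mgat4b, with 111 and 140 (1.26, 0.961 to 1.68), and 85.5 kb from Maml1, inside Hnrnph1, with 157 and 188 (1.20, 0.953 to 1.52). At all 3 the interval lay above the median ratio of all loci, as at 17.3% of all loci. The interval of the Maml1 ratio overlapped those of both loci near it, while that of the Neurl3 ratio ended below the interval of the locus near it.

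The 7 lists of Notch pathway parts held 49 genes besides the 8 above. Of these 49, 6 had a locus nearest to them (12.2%), beside 7.56% of all 21900 protein-coding genes. The 8 genes were listed because they had a locus, so leaving them out lowers this share. With them it was 14 of 57 (24.6%), which their choice raises. Neither share is a test. Gene length and the choice of the lists also bear on both shares and were not tested. The 6 genes were 1 of 5 ligand genes, 3 of 13 genes of ubiquitin ligases and trafficking and 2 of 8 targets. The lists of receptor cleavage (9 genes) and glycosylation (5 genes) had 0, and Rbpj, Notch2, Notch4 and Maml2 had none. Receptor and Mastermind-like genes with a locus were members already, so that the others had none follows from that choice. Over the 7 loci of the 6 genes the median ratio was 0.992, with 4 below 1 and 3 at or above it, and all 7 ratios lay between those of Maml3 and Neurl1b.

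At the ligand gene Dll1 the scaled count was 202 for EBF1wt and 185 for EBF1E271A (ratio 0.916, 0.742 to 1.14). Inside Dtx2 they were 109 and 96.1 (0.881) and inside Neurl4 103 and 95.5 (0.929), the intervals of both holding the median of all loci. Of the Notch targets beside Hes1, the cyclin gene Ccnd1 had a locus 97.6 kb away with 139 for EBF1wt and 196 for EBF1E271A (1.41, 1.11 to 1.81), above the median of all loci. Il2ra, the gene of an interleukin 2 receptor chain, had a locus inside it at 112 and 111 (0.992) and another outside it at 85.4 and 101 (1.18), both with intervals that held that median. The highest value at any of these 7 loci lay 99.9 kb from Mib1, just within the 100 kb limit, with a ratio of 1.104 (1.05 to 1.16).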

How the data were processed

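EBF1 ChIP-seq was analysed in 2 libraries, EBF1wt and EBF1E271A; the input has no value per region here. Per the file headers the deposited values are scaled counts per region, a signal, and per the labels' protocols human BJAB chromatin was used for the scaling by the authors. Per the submitters' processing notes, the tools included MACS2 2.2.7.1, deepTools 3.3.2 and 3.5.0, bedtools 2.27.0, Bowtie2 2.3.5.1 and SAMtools 1.10, with the build GRCm38; their roles, the peak calling and the scale factors are not given in the sources used here. Every deposited value was a whole multiple of 1 step, 1.58 for EBF1wt and 0.632 for EBF1E271A, and dividing by it gave the unscaled counts used for intervals. The recovered counts rest on the values, not on a stated factor, and no count model was run.

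Regions overlapping by at least 1 bp were merged into loci. The table holds 31 exact duplicates, which merging removes. Starts were read as counted from 0 and are printed counted from 1. Genes and promoter windows came from RefSeq tables of GRCm38.p6; genome sequence was not used here. Every locus of the 8 genes was named, and genes of the 7 Notch lists where they had a locus. 1 gene of these lists is not reported here and was left out of their counts. The members and lists were chosen with earlier results of these data known. The ratio, the fold rules and the intervals were tested on simulated data. Python 3.11.15, numpy 2.4.6, pandas 2.3.3 and scipy 1.17.1 were used. Alternatives were 2 equal-sum scalings, other choices of region, gene distance, level and pseudocount (1 and 10), and regions in place of loci.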

Additional observations from a re-analysis of the deposited data

How the results depend on the processing

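The 9 single ratios stayed within their intervals under all 6 alternatives run for them (54 of 54 values). These alternatives shift a ratio by little beside the width of its interval, so this outcome was nearly fixed in advance. A ratio that crossed 1 could also count as within. Equal sums, which shift every log2 ratio by 0.22, or by 0.15 without the highest region, turned the median log2 ratio from -0.13 to 0.087 and 0.018, left 2 and 3 of 9 loci below 1 and 0 at least 1.5-fold lower, and with the highest region included put 1, Neurl1b, at least 2-fold higher. They cannot test the spike-in scale, and the median stayed 0.02 above that of all loci by construction. The difference from the median of all loci changed sign with level. It was -0.010 among loci at or above the median mean value and -0.021 among loci over 100 in both libraries. Each was set against all loci of that level, and under the other settings the difference was positive. With genes within 10 kb, 7 loci remained and 0 were at least 1.5-fold higher. With all genes within 50 kb there were 10 loci, 5 with an interval that excluded the median. Among the 6 loci whose mean value reached the median of all loci, 5 were below 1 and 0 at least 1.5-fold lower, and 0 of the 7 over 100 in both libraries were. Counted as 17 regions, 14 were below 1, 2 at least 1.5-fold lower, 2 higher, and 6 had an interval that excluded the median. The 50 kb, 10 kb, level and region settings change which loci or how many units are counted. No paired analysis was possible because each group has 1 library. Depth sets the width of the intervals: the loci held 64 to 249 EBF1wt counts.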
